A study of Homo sapiens with 6 samples.

Results

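The genes of the mitochondrial respiratory chain and of the ATP synthase were compared between large physaliferous and small non-vacuolated cells of the chordoma line MUG-Chor1. They were chosen by name: each gene with a symbol of the families NDUFA, NDUFB, NDUFC, NDUFS, NDUFV, SDHA to SDHD, UQCR, ATP5 and COX4 to COX8, together with *CYC1* and *CYCS*. Of 18404 genes that the array annotation names singly, 89 met this rule after 2 pseudogenes were left out. Of these, 81 are subunits: 34 of complex I, 3 of complex II, 8 of complex III, 1 cytochrome c gene, 17 of complex IV and 18 of complex V. Counted among them by their names are *ATP5IF1*, an inhibitor of the ATP synthase, and *COX7A2L*, which joins complexes into larger assemblies. The other 8 are 7 complex I assembly factors (NDUFAF genes) and the non-coding transcript *NDUFV1-DT*. The rule used names only, although the genes were chosen with earlier results of these data known.

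Chordoma is a rare bone tumour with features of the notochord, and its heavily vacuolated cells are called physaliferous. The line, with no added agent, was grown in IMDM/RPMI medium with serum, trypsinized, and picked by hand under the microscope into pools of 20 cells. There were 3 pools of large physaliferous cells (pools 2, 3 and 4) and 3 of small non-vacuolated cells (pools 5, 6 and 7). Each pool was amplified and hybridized to 1 Human Gene ST array, so the p-values measure the spread between pools, which are not stated to come from separate cultures.

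The respiratory chain passes electrons from NADH and succinate through complexes I, II, III and IV to oxygen, with ubiquinone and cytochrome c as mobile carriers. Complexes I, III and IV pump protons out of the mitochondrial matrix, and complex V, the ATP synthase, uses their return to make ATP. Most subunits are encoded in the nucleus and a few in mitochondrial DNA. Tumour cells that rely on glycolysis may still keep the chain at work, and the nuclear genes are known to share binding sites for the regulators NRF1, GABP and YY1.

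Expression is given on the log2 scale as deposited, and a difference is the mean of the large pools minus the mean of the small pools. A gene was tested where its probe set exceeded a floor of 6.64, which is log2 of 100, in at least 25% of the arrays. This left 11694 genes, among them 74 of the 81 subunits and 6 of the 7 NDUFAF genes. Not tested, since they exceeded the floor in at most 1 array, were *NDUFS7*, *UQCRB*, *UQCRC1*, *COX6B2*, *COX7B2*, *COX8C*, *ATP5MGL*, *NDUFAF6* and *NDUFV1-DT*. The mitochondrially encoded subunits, and *SDHB*, *NDUFA4*, *NDUFA4L2* and *UQCRFS1*, were not analysed here. Median signals of the arrays were 6.68, 6.64 and 6.67 in the large pools and 6.75, 6.76 and 6.73 in the small pools. Every small array thus had a higher median than every large array. The cells carried chordoma and notochord markers in both phenotypes: 7 of 9 listed markers, including the notochord factor *TBXT* and the keratins *KRT8*, *KRT18* and *KRT19*, were above the floor in all 6 pools. Of the markers of other cell types, the fibroblast list (8 measured genes) summed, as log2 of the added linear levels, to 10.36 to 10.82 in the large pools and 10.93 to 11.16 in the small pools. Of this list *COL1A1*, *COL1A2*, *COL3A1* and *THY1* were above the floor in all 6 pools, and *DCN* and *FAP* were below it in every pool. The skeletal muscle list (7 genes) summed to 9.51 to 9.70 in the large pools and 9.76 to 9.87 in the small pools. *ACTA1*, *TNNT1* and *MYOG* were above the floor in all 6 pools, and *CKM*, *MYH1*, *MYH2* and *MYH7* were below it throughout. The leukocyte and endothelium lists overlapped between the phenotypes, and *PTPRC*, *PECAM1* and *CDH5* were below the floor in every pool. The endothelium marker *KDR* was above the floor in all 6 pools. The macrophage marker *CD68*, above the floor in all 6 pools, measured 8.97, 8.67 and 9.003 in the large pools and 8.71, 8.16 and 7.97 in the small pools, a difference of 0.60 (limma adjusted p = 0.32) with overlapping pools. The part of these levels in the results was not tested.

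The promoters of these genes share short sequences that the choice by name did not use. In the RefSeq promoters of GRCh38.p14, which run from 250 bases before to 50 after a start site, 68 of the 81 subunits were found, with 81 promoters. These were searched on both strands for the NRF1 core CGCATGCG, the ETS core of GABP CCGGAAGT and the YY1 core AAGATGGC. The NRF1 core reads the same on both strands, and 0 of the 36 matches in subunit promoters overlapped another. At least 1 of the 3 occurred in 31 subunit promoters, or 38.3%, against 13.5% of the 13135 promoters of genes tested and 8.45% of all 35116 promoters. The following stretches, each ending at the base before the start site, are shown because they carry these words in complexes I to V and because *UQCR10* had the smallest p-value among the subunits. Capitals mark a motif core, read on either strand, and the *UQCR10* stretch holds none.
*NDUFB4*, chr3:120596166-120596335, plus strand: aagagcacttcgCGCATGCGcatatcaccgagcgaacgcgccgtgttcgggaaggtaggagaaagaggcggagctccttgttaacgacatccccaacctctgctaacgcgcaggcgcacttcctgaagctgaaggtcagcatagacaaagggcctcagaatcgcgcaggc
*SDHD*, chr11:112086753-112086872, plus strand: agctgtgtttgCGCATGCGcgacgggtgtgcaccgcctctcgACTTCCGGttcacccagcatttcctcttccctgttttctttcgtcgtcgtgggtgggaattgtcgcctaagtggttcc
*UQCR11*, chr19:1605463-1605582, minus strand: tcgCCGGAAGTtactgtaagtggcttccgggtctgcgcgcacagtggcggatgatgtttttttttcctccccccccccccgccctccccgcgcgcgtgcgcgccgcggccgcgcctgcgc
*UQCR10*, chr22:29767249-29767368, plus strand: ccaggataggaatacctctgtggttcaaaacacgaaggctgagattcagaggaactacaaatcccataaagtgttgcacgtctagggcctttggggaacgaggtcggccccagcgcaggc
*COX8A*, chr11:63974500-63974619, plus strand: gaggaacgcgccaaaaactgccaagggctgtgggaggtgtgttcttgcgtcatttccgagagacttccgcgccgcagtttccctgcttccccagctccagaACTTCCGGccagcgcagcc
*ATP5ME*, chr4:674277-674396, minus strand: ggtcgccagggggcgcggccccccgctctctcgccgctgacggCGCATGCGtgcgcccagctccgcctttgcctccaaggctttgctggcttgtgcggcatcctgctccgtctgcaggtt

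The NRF1 core lay 158 bases before the start site of *NDUFB4*, an accessory subunit of complex I, and 77 bases before that of *ATP5ME*, a membrane subunit of the ATP synthase. *SDHD*, a membrane anchor of complex II, carried an NRF1 core 109 bases and a reversed ETS core 78 bases before its start site. *UQCR11* of complex III and *COX8A* of complex IV each carried an ETS core. By motif, the NRF1 core was in 13.6% of subunit promoters against 3.11% of those of genes tested, the ETS core in 14.8% against 6.95%, and the YY1 core in 14.8% against 4.6%. Counted per gene and not per promoter, any of the 3 occurred in 44.1% of the 68 subunit genes and 17.7% of genes tested. In complex V it was 9 of 13 genes (69.2%) and in complex IV 3 of 14 (21.4%). A match describes the letters only. The 28 tested subunits with a match had a median difference of 0.09 and the 35 without a match had one of 0.04.

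**Figure D1:**
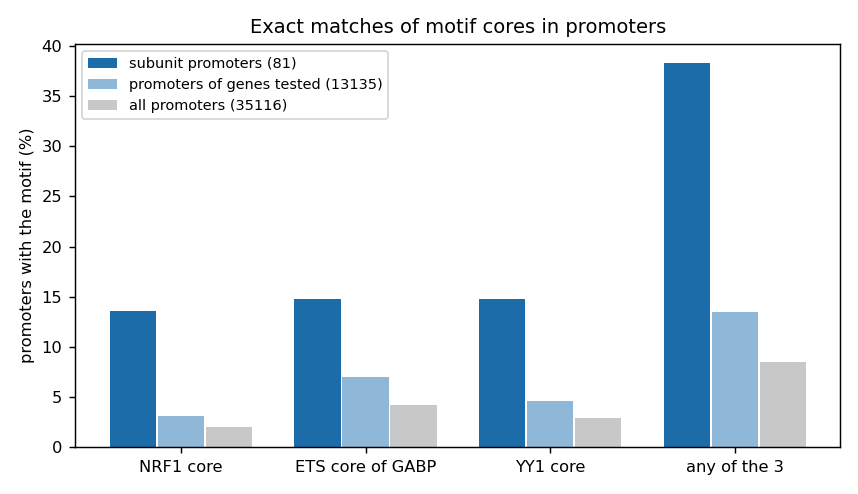
Percentage of promoters (y axis, from 0) with an exact match to each of 3 motif cores or to any of them (x axis), for 81 subunit promoters (dark blue), 13135 promoters of genes tested (light blue) and all 35116 promoters (grey). The subunit bars are the tallest in each set, with 38.3% for any motif against 13.5% and 8.45%.

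The factors that are known to bind these words did not pass the test between the phenotypes. *NRF1*, an activator of nuclear respiratory genes, stood at 7.62, 7.41 and 7.22 in the large pools and 7.35, 7.87 and 7.65 in the small pools. *GABPA*, the DNA-binding part of GABP, stood at 8.22, 8.12 and 8.73 against 8.24, 8.49 and 8.45, and *YY1* at 8.81, 8.40 and 8.24 against 8.74, 8.36 and 8.54. The pools of the phenotypes overlapped for all 3 factors, with limma adjusted p-values of 0.54, 0.92 and 0.86.

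No respiratory chain or ATP synthase subunit differed between large and small cells by as much as 1 on the log2 scale. None of the 74 tested subunits was called (adjusted p under 0.05 by limma and a log2 fold change beyond 1), and none of the 11694 genes was called, a background of 0%. Of the 74 differences 71 (95.9%) were smaller than 0.5. Over all genes tested 87.1% were that small, and 83.7% in the brightest 20% of genes, those with a mean above 8.49 over the 6 pools. The 95% confidence interval of the difference lay wholly between -1 and 1 for 66 subunits (89.2%), against 77.7% of all genes and 71.7% of the brightest 20%. For these 66 a change of 2-fold or more lay outside the interval, while for the other 8 (*NDUFA6*, *NDUFA8*, *NDUFB5*, *NDUFB6*, *SDHC*, *SDHD*, *COX6B1* and *COX7B*) it did not. In pools of whole cells a lower level of a transcript in each cell and fewer cells that carry it cannot be told apart.

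The median difference of the subunits was 0.04, and 46 of 74 (62.2%) were higher in the large pools. That share was 51.4% after a further quantile normalization and 81.1% after each array was centred on its median. Over all genes tested the median was -0.10 and 38.1% were higher as deposited. The median of all genes was -0.06 after quantile normalization and -0.01 after centring. This background depended on signal: in the brightest 20% of genes, which held 55 of the 74 subunits, the median was 0.10 and 65.5% were higher. The 55 subunits in that class had a median of 0.07. By complex the medians were 0.04 for complex I (20 of 33 higher), 0.23 for complex II (3 of 3), -0.03 for complex III (2 of 6), 0.09 for complex IV (11 of 14) and 0.01 for complex V (9 of 17). The median of complex V turned to -0.04 when the trend with signal level was removed and to -0.03 after quantile normalization. That of complex I was -0.01 after quantile normalization and -0.05 without small pool 6, and that of complex II was -0.06 without large pool 2. That of complex III was 0.06 after centring, 0.04 with array weights, 0.11 without large pool 3 and 0.16 without small pool 5.

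At an unadjusted p under 0.05, 3 subunits were higher in the large pools, or 4.05% of those tested, beside 5.65% of all genes and 8.89% of the brightest 20%. In the same way 1 subunit was lower, or 1.35%, beside 9.37% of all genes and 1.84% of the brightest 20%. All large pools lay above all small pools in 10 subunits (13.5%), beside 7.22% of all genes and 13.8% of the brightest 20%. All large pools lay below all small pools in 0 subunits, beside 21.3% of all genes and 3.29% of the brightest 20%. With 3 pools against 3 a two-sided exact permutation test cannot go below 0.1 for any such gene.

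**Figure D2:**
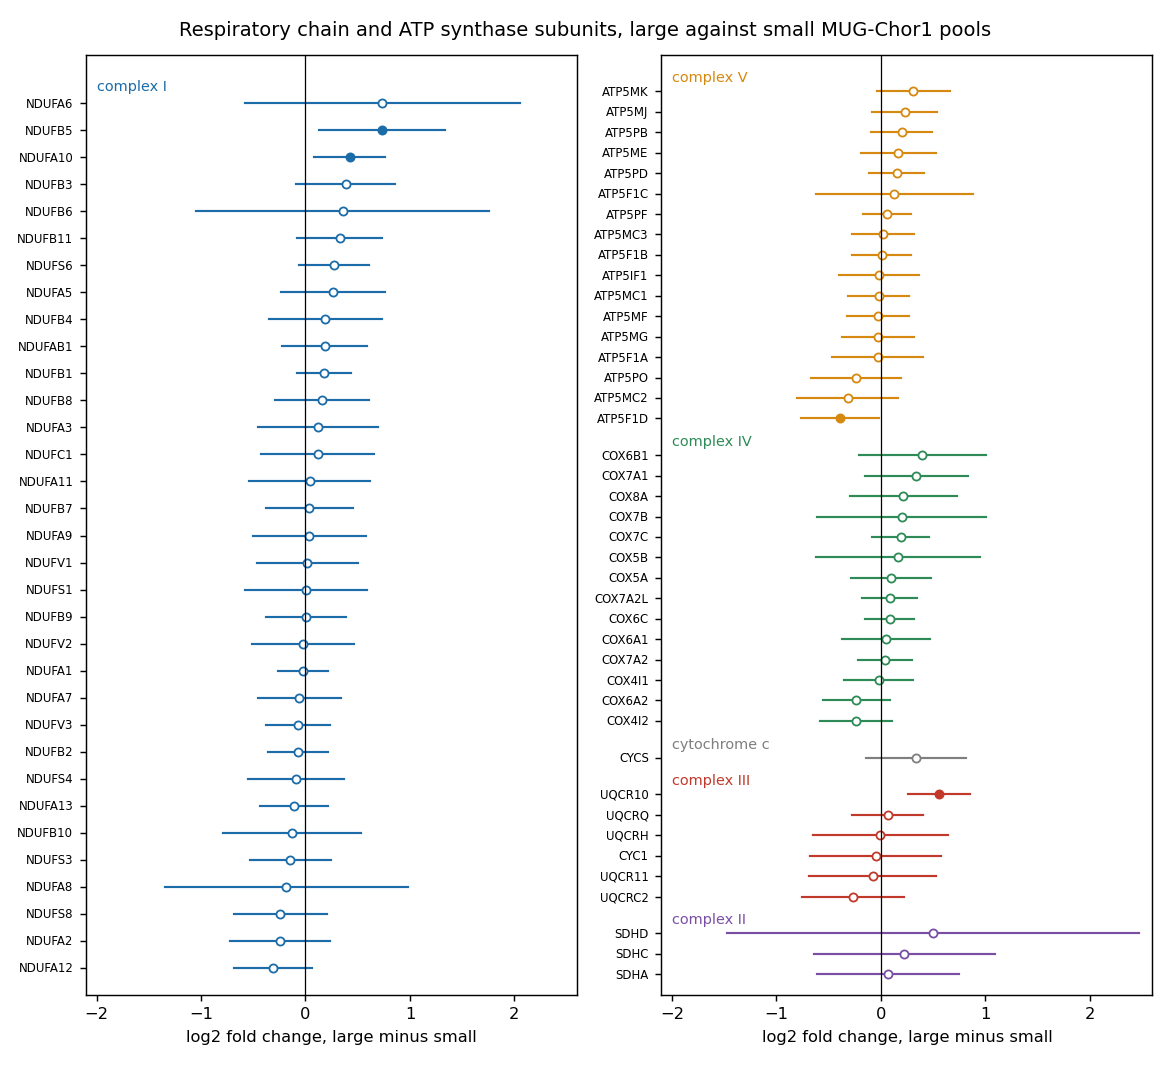
Difference in log2 expression, large minus small pools (x axis), of the 74 subunits tested (y axis), grouped by complex, with 3 pools in each phenotype. Points are limma estimates, lines are 95% confidence intervals and filled points have an unadjusted p under 0.05; no estimate is as large as 1 in size.

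Complex I, the NADH dehydrogenase, takes electrons from NADH, and its core subunits carry the flavin and the iron-sulfur clusters. The 5 core subunits tested had a median difference of -0.02, and the 28 accessory subunits, which stabilize the enzyme, had one of 0.08. The largest estimates were in accessory subunits. *NDUFB5* measured 9.29, 9.08 and 9.96 in the large pools and 8.52, 8.76 and 8.85 in the small pools. Every large pool was above every small pool, with a difference of 0.73 ± 0.25 (SE, n = 3 and 3, limma adjusted p = 0.32). *NDUFA10* measured 8.26, 8.61 and 8.53 against 8.15, 8.09 and 7.89. Here too the phenotypes did not overlap, and the difference was 0.42 ± 0.14 (SE, limma adjusted p = 0.32).

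*NDUFA6*, an accessory subunit of the arm that reaches into the matrix, had the same estimate as *NDUFB5* but far wider pools. It stood at 8.76, 9.24 and 9.45 in the large pools and 8.18, 7.48 and 9.59 in the small pools. Small pool 7 was above all large pools and small pool 6 was the lowest, so that the difference of 0.73 had an SE of 0.54 and a limma adjusted p of 0.47. *NDUFB3* and *NDUFB1*, both accessory subunits of the membrane arm, were apart between the phenotypes without reaching the unadjusted threshold. *NDUFB3* measured 9.53, 10.02 and 9.64 against 9.49, 9.05 and 9.50, a difference of 0.38. *NDUFB1* measured 10.40, 10.42 and 10.42 against 10.16, 10.18 and 10.38, a difference of 0.18. The lowest estimate in complex I was -0.31, for the accessory subunit *NDUFA12*.

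The core subunit *NDUFS7*, which was not tested, read 6.47, 6.29 and 6.45 in the large pools and 6.72, 6.57 and 6.63 in the small pools. It was the only measured core subunit not tested. All its large pools lay below all its small pools, as they did in 21.3% of all genes tested. Among the 7 subunits not tested this held also for the testis-type isoform *COX8C*, which was below the floor in every pool.

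**Figure D3:**
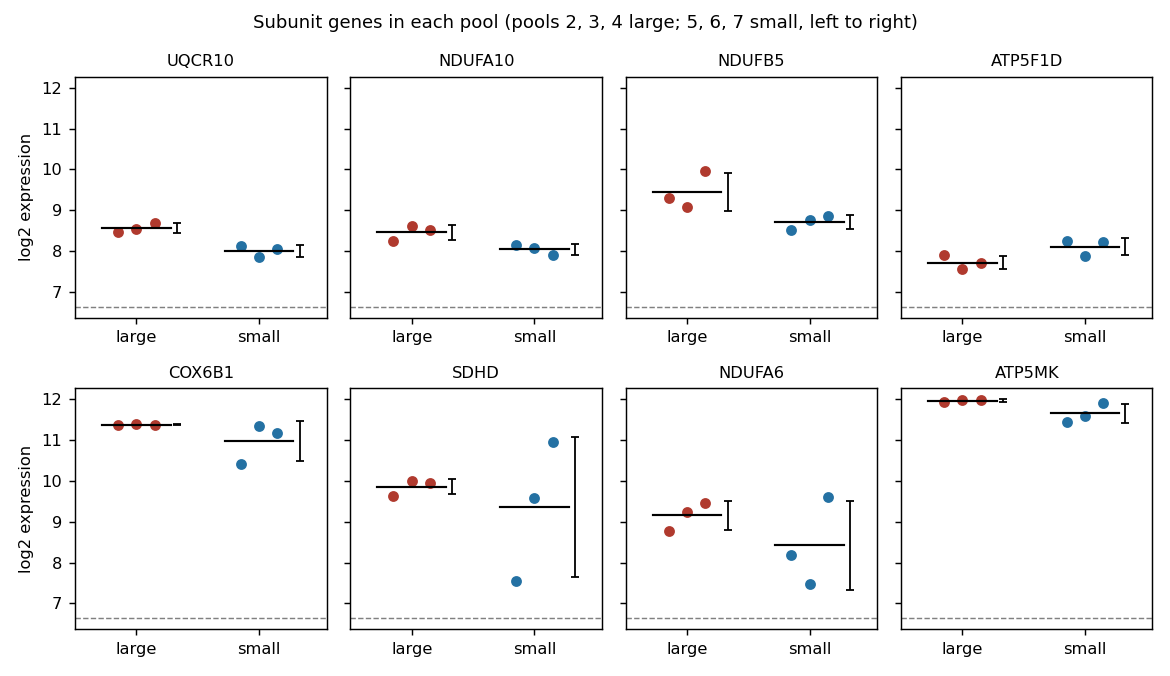
Log2 expression (y axis) of 8 subunit genes in each pool of 20 cells, large in red and small in blue, with the mean (horizontal line), the SD over 3 pools (bar) and the expression floor (dashed line). *UQCR10*, *NDUFA10*, *NDUFB5*, *COX6B1* and *ATP5MK* show all red points above all blue points, and *SDHD* and *NDUFA6* show small pools that spread over more than 2 log2 units.

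Complex II, succinate dehydrogenase, links the citric acid cycle to ubiquinone. *SDHA*, its flavoprotein, measured 8.60, 8.08 and 8.37 in the large pools and 8.86, 8.01 and 7.98 in the small pools. *SDHC*, a membrane anchor, measured 9.23, 8.62 and 8.08 against 8.91, 8.33 and 8.01. Both genes overlapped widely between the phenotypes, with differences of 0.07 and 0.23 and limma adjusted p-values of 0.90 and 0.74.

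*SDHD* had the widest spread of all subunits. Its brighter probe set read 9.64, 9.99 and 9.94 in the large pools and 7.56, 9.57 and 10.95 in the small pools, a range of 3.39 among the small pools against 0.35 among the large pools. The difference of 0.50 (limma adjusted p = 0.75) turned to -0.40 without small pool 5. A dimmer probe set of the same gene read 8.26, 8.27 and 8.30 against 8.15, 8.16 and 8.41, with no such spread. The annotation places *SDHD* on chromosome 11, and all 20 probe sets with the identifiers nearest to the brighter one belong to genes of chromosome 1, while those nearest to the dimmer one belong to genes of chromosome 11. The same held for the brighter probe sets of *SDHC* (neighbours on chromosome 17), *NDUFV2* (19), *COX6A1* (6), *ATP5MK* (X) and *NDUFAF2* (2), so that 6 of the 89 probe sets used may read a near-identical copy elsewhere in the genome and their values are uncertain. With the other probe set of each of these 6 genes the median difference of the subunits was again 0.04, and that of complex II went from 0.23 to 0.07. The neighbours were mixed for *NDUFB4* (10 of 20 on its own chromosome 3) and *SDHA* (12 of 20 on chromosome 5). Neither was counted among the 6.

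Complex III, the cytochrome bc1 complex, passes electrons from ubiquinol to cytochrome c. *UQCR10*, a small accessory subunit, had the smallest p-value of all subunits. It measured 8.46, 8.54 and 8.69 in the large pools and 8.12, 7.85 and 8.05 in the small pools. The phenotypes did not overlap, and the difference was 0.56 ± 0.12 (SE, n = 3 and 3, limma adjusted p = 0.32). It kept its direction in every alternative that tested it, between 0.48 and 0.64. *UQCRC2*, a core protein, measured 9.40, 9.55 and 9.47 against 10.11, 9.35 and 9.76, a difference of -0.27. *CYC1*, the cytochrome c1 subunit, measured 9.06, 8.47 and 8.90 against 9.26, 8.90 and 8.43, a difference of -0.05. Both overlapped between the phenotypes. Cytochrome c itself (*CYCS*), which carries electrons to complex IV and also takes part in apoptosis, measured 10.58, 11.06 and 11.02 in the large pools and 10.55, 10.29 and 10.81 in the small pools. Its difference of 0.34 ± 0.20 (SE) did not pass the test (limma adjusted p = 0.40).

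Complex IV, cytochrome c oxidase, hands the electrons to oxygen, and several of its subunits exist as a widely expressed form and a form known from muscle, lung or testis. Of the 10 widely expressed forms 9 were higher in the large pools, with a median difference of 0.13. Their median level was 10.45, and in the brightest 20% of genes 65.5% were higher, with a median of 0.10. With the signal trend removed, *COX6A1* and *COX7A2* turned to -0.0089 and -0.0098. *COX6B1*, which faces the space between the membranes, measured 11.36, 11.39 and 11.38 in the large pools and 10.41, 11.34 and 11.17 in the small pools. The large pools lay within 0.03 of each other and above all small pools, and the difference of 0.40 ± 0.25 (SE, limma adjusted p = 0.42) fell to 0.11 without small pool 5. *COX7C* was apart as well, at 11.09, 11.29 and 11.08 against 11.01, 10.86 and 11.02.

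Among the restricted forms, *COX4I2*, known from lung, measured 6.71, 7.13 and 6.87 in the large pools and 7.23, 7.17 and 7.02 in the small pools. *COX6A2*, known from heart and skeletal muscle, measured 7.405, 7.50 and 7.63 against 7.93, 7.73 and 7.58. Their differences were -0.24 and -0.23, and those of the widely expressed partners *COX4I1* and *COX6A1* were -0.02 and 0.05, with signs that changed under other scalings. *COX7A1*, also known from muscle, went the other way with 8.90, 9.20 and 8.88 against 8.91, 8.27 and 8.78, a difference of 0.34 beside 0.04 for its partner *COX7A2* (-0.01 with the trend removed). Over the alternatives the difference ranged from 0.15 (without small pool 6) to 0.47 for *COX7A1* and from -0.35 to -0.09 (trend removed) for *COX4I2*. None of these passed the test (limma adjusted p between 0.385 and 0.943), and *COX6B2*, *COX7B2* and *COX8C*, known mainly from testis, were below the floor.

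Complex V consists of a catalytic F1 part, a membrane part with a ring of subunit c, and a stalk that holds them together. *ATP5F1D*, the delta subunit of the rotating shaft, was the only subunit lower at the unadjusted threshold. It measured 7.90, 7.56 and 7.71 in the large pools and 8.24, 7.88 and 8.22 in the small pools. Large pool 2 was above small pool 6, so the phenotypes overlapped slightly, and the difference was -0.39 ± 0.15 (SE, limma adjusted p = 0.33). The subunits *ATP5F1A* and *ATP5F1B* of the F1 part differed by -0.03 and 0.01, with signs that changed under other scalings. The genes *ATP5MC1*, *ATP5MC2* and *ATP5MC3*, which encode the same mature subunit c, differed by -0.02, -0.32 and 0.02, of which the first and the last changed sign under other scalings and that of *ATP5MC2* was -0.12 without large pool 3.

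*ATP5MK*, a small membrane subunit, measured 11.92, 11.99 and 11.96 in the large pools and 11.44, 11.58 and 11.91 in the small pools, a difference of 0.31. Its other probe set, whose identifiers neighbour those of the gene's own chromosome, read 11.67, 11.75 and 11.69 against 11.03, 11.01 and 11.52, a difference of 0.52. On both probe sets all large pools were above all small pools (limma adjusted p = 0.34 and 0.32). The stalk subunits *ATP5PD* and *ATP5PF* were apart in the same direction by only 0.15 and 0.06. *ATP5PD* measured 11.60, 11.62 and 11.59 against 11.33, 11.57 and 11.45, and *ATP5PF* 8.001, 8.09 and 7.998 against 7.98, 7.95 and 7.98. The inhibitor *ATP5IF1*, which blocks the enzyme when the proton gradient falls, differed by -0.01 (0.07 after centring).

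Among the subunits the small pools varied more than the large pools, which was not tested. The median SD of a subunit was 0.15 over the large pools and 0.22 over the small pools, and the small pools had the larger SD in 50 of 74 subunits (67.6%). The brightest 20% of genes gave 65.6%, with median SDs of 0.19 (large) and 0.29 (small). All genes gave 50.6%, with median SDs of 0.18 and 0.18. A range above 1 occurred among the small pools in 7 of the 74 subunits (*SDHD*, *NDUFB6*, *NDUFA6*, *NDUFA8*, *COX7B*, *NDUFB10* and *COX5B*) and among the large pools in 1 (*SDHC*). Beside this, the small pools had such a range in 493 of the 2339 brightest genes and 1708 of all 11694. For the large pools these counts were 166 and 1029. Small pool 6 was the lowest of the 6 pools in 26 subunits (35.1%), against 29.6% in the brightest 20% and 15.2% of all genes. *NDUFA8*, for example, measured 10.46, 10.16 and 10.46 in the large pools and 11.38, 9.46 and 10.79 in the small pools. Without small pool 6 the median difference of the subunits was -0.01 in place of 0.04.

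**Figure D4:**
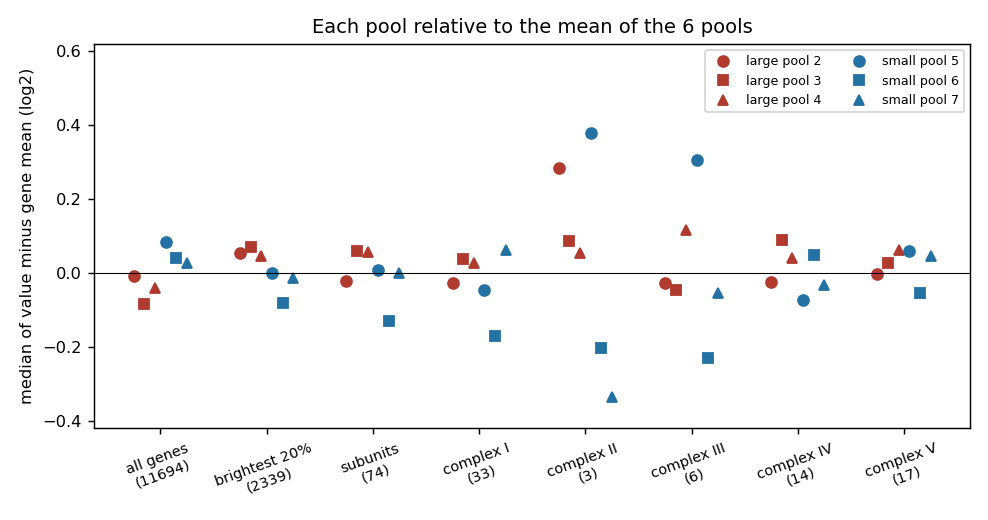
Median over the genes of a set of the log2 value minus the gene's mean over 6 pools (y axis), for all genes, the brightest 20%, the 74 subunits and each complex (x axis, number of genes in brackets), with large pools in red and small pools in blue. For the subunits small pool 6 lies at -0.13 and the other 5 pools lie between -0.02 and 0.06.

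Assembly factors, which build the complexes but are not part of them, more often differed by 0.5 or more than the subunits, which was not tested. Their median difference was 0.04, as was that of the subunits. Of 59 factors (the 7 NDUFAF genes and 52 listed factors) 46 were tested, and 30 of the 46 (65.2%) differed by less than 0.5. That share was 95.9% among the subunits and 87.1% over all genes, as given above. The median SE was 0.25 at a median level of 7.99 for the factors, and 0.17 at 9.61 for the subunits. At an unadjusted p under 0.05, 5 of the 46 (10.9%) were higher and 3 (6.52%) were lower in the large pools, beside 5.65% and 9.37% of all genes, and none was called. *SDHAF2*, which attaches the flavin to *SDHA*, measured 9.42, 9.46 and 9.19 in the large pools and 6.93, 7.73 and 8.27 in the small pools. Its difference of 1.71 ± 0.33 (SE, limma adjusted p = 0.32) was the largest among the subunits and factors, although *SDHA* differed by 0.07.

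*TMEM126B*, a complex I assembly factor, measured 9.40, 9.85 and 9.91 against 8.22, 9.24 and 8.21, a difference of 1.16. *DMAC1*, another, went the other way with 7.68, 8.43 and 7.19 against 8.77, 9.13 and 8.45, a difference of -1.01. The phenotypes did not overlap in either gene, and the limma adjusted p was 0.32 for both. Of the complex III factors *LYRM7*, which guards the iron-sulfur protein, differed by 0.78 and *UQCC1* by -0.55. *UQCC1*, counted above among the lower factors, passed the floor of 6.64 only through the small pools. It read 6.47, 6.28 and 6.57 in the large pools and 7.41, 6.73 and 6.82 in the small pools. Of the complex IV factors *CMC2* and *COA6* differed by 0.77 and 0.46, and *TACO1*, a translation activator for a mitochondrial subunit, by -0.71. The 6 NDUFAF genes tested ranged from -0.26 to 0.89, and none reached the unadjusted threshold.

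**Figure D5:**
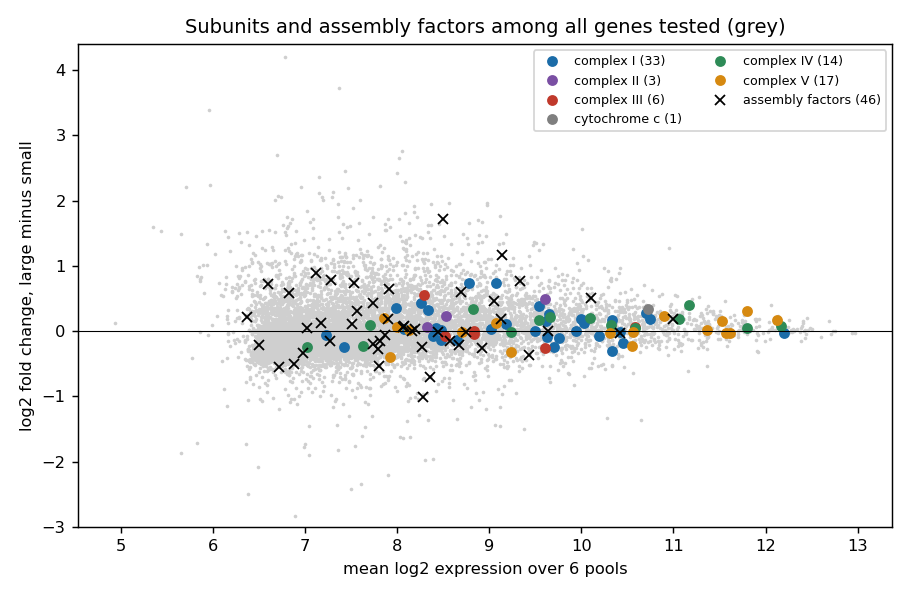
Difference in log2 expression, large minus small pools (y axis), against the mean log2 expression over 6 pools (x axis) for the 74 subunits (coloured by complex), 46 assembly factors (crosses) and all 11694 genes tested (grey). All subunits lie between -1 and 1, while *SDHAF2* and *TMEM126B* lie above 1 and *DMAC1* below -1.

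Genes that feed the chain or maintain mitochondrial DNA were counted at the same unadjusted threshold, which 5.65% of all genes passed upwards and 9.37% downwards. Of 16 tested genes of pyruvate dehydrogenase and the citric acid cycle 1 was higher, *PDHA1*, with 9.92, 10.23 and 10.53 in the large pools and 9.76, 9.71 and 9.75 in the small pools. Of 15 genes of ubiquinone synthesis and other electron donors *SQOR* (0.62) and *COQ9* (0.42) were higher, and *COQ8B* (-0.36) and *PRODH* (-0.28) were lower. Both lower genes read below the floor of 6.64 in every large pool. They passed it only through small pools, 2 for *COQ8B* and 3 for *PRODH*. *SQOR*, which oxidizes sulfide and passes the electrons to ubiquinone, measured 8.42, 8.45 and 8.27 against 7.56, 7.92 and 7.81, with no overlap. Of 9 genes of mitochondrial DNA copying and transcription *POLG2* (-0.54) was lower, and the packaging factor *TFAM* overlapped at 7.06, 6.76 and 7.22 against 6.14, 6.32 and 7.10. Of 18 genes of mitochondrial import and the outer membrane the channel *VDAC2* (0.66) was higher, and of 10 nuclear regulators none reached the threshold. All of these had a limma adjusted p of at least 0.318.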

How the data were processed

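Per the labels and the methods, total RNA of each pool of 20 MUG-Chor1 cells was amplified (WT-Ovation One-Direct) and hybridized to a Human Gene 1.0 ST array. The authors deposited log2 expression values made by robust multi-array averaging, 1 column per array and 32321 probe sets, with replicates not pooled and 0 columns unused. The processing notes of the submitters list Affymetrix Expression Console, without a version, whereas the methods give affy, an R package. Which of them made the deposited values is not settled in the sources used here, and none names the chip definition. Averaging of this kind draws the arrays to a common distribution, so a change shared by most genes cannot be seen.

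Of the probe sets 19158 carried 1 gene symbol in the platform annotation, 1388 several and 11775 none. For each of the 18404 genes with a single symbol the probe set with the highest mean over 6 arrays was used, and 11694 genes passed the floor. *NDUFC2*, *NDUFS5* and *ATP5F1E* lie on probe sets with several symbols and were left out. The moderated test of limma 3.58.1 (R 4.3.3) compared the phenotypes without covariates, and p-values were adjusted over all genes tested by the Benjamini-Hochberg method. The code was tested on simulated data first. The number of arrays limits the precision.

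The genes and lists were chosen with earlier results of these data known, so lists are described by counts and medians with no test. Genes named in the text are the subunits under an unadjusted p of 0.05, the 2 largest differences of each complex, isoform pairs, complex II, *CYC1* and *CYCS*, members whose probe sets differ in sign, and up to 4 genes per list under that threshold. *NDUFB1*, *NDUFB3*, *COX7C*, *ATP5PD* and *ATP5PF*, named because their pools did not overlap, and other members named for their role or range, were chosen after their values were seen. RefSeq genes and promoters of GRCh38.p14 gave chromosomes and sequences. Alternatives changed the scaling, the signal trend, the filters, the variance model, array weights and the probe set, and left out each pool in turn. Another probe set per gene, from its neighbours in the identifier order, was added after seeing the data.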

Additional observations from a re-analysis of the deposited data

How the results depend on the processing

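No subunit was called under any of the 16 alternatives, and *UQCR10*, *NDUFA10*, *NDUFB5* and *ATP5F1D* kept their directions in those where they were tested. A filter on an interquartile range above 0.5 left 2062 genes and 5 subunits. It called 2 genes, *SNORD59B* and *ZNF814*, with 0 subunits at the unadjusted threshold in either direction, 0 apart, and medians of 0.23 over subunits, 0.55 in complex I and 0.16 in complex IV. Of all genes left by this filter 11.1% were higher and 1.65% lower at that threshold. Centring each array on its median gave 5 subunits higher and 0 lower at the unadjusted threshold, 16 apart upwards, and medians of 0.13 over subunits, 0.17 in complex IV and 0.093 in complex V. After centring, 8.39% of all genes were higher and 3.36% lower at that threshold. For the alternatives, including those that leave out a pool, no share of all genes apart is given here. Quantile normalization and removal of the signal trend each gave 5 subunits apart upwards and 2 downwards, and the latter turned the median of complex V to -0.043. Quantile normalization turned the medians of complex V and complex I to -0.031 and -0.011, and that of complex III turned to 0.058 after centring and 0.037 with array weights. The subunit median minus that of all genes was 0.14 as deposited, 0.08 after quantile normalization, 0.14 after centring and 0.04 with the trend removed. With no floor 2 subunits were apart downwards and the median of complex V was -0.0027, and with a trended robust variance or array weights 0 were lower at the unadjusted threshold. Over all genes the share lower was 10.9% with that variance and 8.99% with array weights.

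Leaving out 1 pool at a time gave 2 to 6 subunits higher and 0 to 3 lower at the unadjusted threshold, 11 to 18 apart upwards (18 without small pool 7) and 0 to 7 downwards (7 without small pool 6). In these runs 4.34% to 6.35% of all genes were higher and 4.69% to 7.54% lower at that threshold. Apart is easier to reach with fewer pools. Medians ran from -0.053 to 0.12 in complex I, -0.057 to 0.46 in complex II, -0.068 to 0.16 in complex III and -0.0039 to 0.067 in complex V. Of the named members recomputed, differences that changed sign in these runs were *ATP5F1A* (-0.21 to 0.087), *ATP5F1B* (-0.071 to 0.079), *ATP5IF1* (-0.14 to 0.11), *NDUFA8* (-0.73 to 0.23), *ATP5MC1* (-0.095 to 0.035), *ATP5MC3* (-0.049 to 0.091), *COX4I1* (-0.11 to 0.038), *COX6A1* (-0.13 to 0.15), *COX7A2* (-0.0020 to 0.093), *COX7B* (-0.13 to 0.39), *CYC1* (-0.27 to 0.15), *NDUFAF2* (-0.55 to 0.14), *NDUFS4* (-0.27 to 0.047), *SDHA* (-0.082 to 0.36), *SDHC* (-0.068 to 0.51) and *SDHD* (-0.40 to 1.29). Other changes of sign among them were *ATP5MC3* (-0.031) and *ATP5F1B* (-0.026) after quantile normalization, *ATP5MC1* (0.062), *ATP5F1A* (0.054), *ATP5IF1* (0.070), *COX4I1* (0.064) and *CYC1* (0.035) after centring, *ATP5F1B* (-0.043), *COX6A1* (-0.0089) and *COX7A2* (-0.0098) with the trend removed, *CYC1* (0.020) and *ATP5IF1* (0.013) with array weights, *NDUFS4* (0.25, mean of its probe sets), and *COX6A1* (-0.026) and *NDUFAF2* (0.061) with the added choice of probe set. None of these was called, and the cause was not tested.

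No paired analysis was possible because the large pools are numbered 2 to 4 and the small pools 5 to 7, so that the phenotypes share no number.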
